A study of Homo sapiens with 8 samples.

Results

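MITF, TFEB and TFEC are 3 of the 20163 protein-coding genes annotated on hg19 by GENCODE, and with TFE3 they make up the MiT/TFE family of transcription factors. Their peaks are described here in CUT&Tag peak lists of 2 histone marks, H3K23 succinylation (H3K23su) and H3K27 acetylation (H3K27ac), in a colon cancer line and its drug-resistant derivative. The genes were chosen by results known for these lines, these peak lists included: MITF is among the factors the study listed as higher in HCT15-FR, and TFEB and TFEC are its relatives. Differences between the lines are therefore given as descriptions with no test, and 2 libraries against 2 could in any case not go below an exact two-sided permutation p = 0.333.

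The study profiled HCT15, an established human colorectal cancer line, as parental cells, labelled as DMSO-treated (HCT15-Pa), and as 5-fluorouracil-resistant cells, labelled as treated with 20 μg/ml 5-FU (HCT15-FR). The study's methods instead describe drug-free medium for HCT15-Pa, with no mention of DMSO there, and give the 5-FU dose as that of HCT15-FR maintenance, with some days without drug before experiments. CUT&Tag cuts and tags DNA beside nucleosomes bound by an antibody. Each mark was measured in 2 libraries of each line, 8 in all. The resistant line is 1 line, and the labels do not say whether the 2 libraries of a line came from separate cultures, so the spread between them may be technical.

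The MiT/TFE proteins are basic helix-loop-helix leucine zipper factors that bind E-box motifs as homodimers or as heterodimers with each other. TFEB and TFE3 are best known as activators of lysosome and autophagy genes when nutrients run short, MITF as the master regulator of melanocytes and osteoclasts, and TFEC for its more restricted expression in myeloid cells. MITF is read from a row of alternative promoters, each with its own opening exon joined to a common body. The most upstream, promoter A, is used in many cell types, and the most downstream, promoter M, is used in the melanocyte lineage. H3K27ac marks active promoters and enhancers, and H3K23su, a larger acyl group on another lysine of the same histone tail, was the mark of interest.

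Promoters were defined from annotated transcription start sites (TSSs), with TSSs up to 500 bp apart joined, and were numbered in the direction of transcription. MITF (ENSG00000187098, chr3:69788607-70017487 on the plus strand) had 7 promoters for 20 transcripts. Promoter 1, promoter A, lay at chr3:69788607, and promoters 2 to 7 lay 19.248, 23.268, 24.1, 54.952, 126.768 and 197.131 kb downstream. Promoter 7 was promoter M. Promoters 1, 4, 6 and 7 gave rise to complete coding transcripts, whereas the single transcripts of promoters 2, 3 and 5 (MITF-206, MITF-207 and MITF-218) had no complete coding sequence in the annotation.

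The sequences below are the 250 bases upstream of the MITF promoters at which a peak was called in HCT15-FR and not in HCT15-Pa (promoters 3, 4 and 6), and of promoter M for contrast, all read 5′ to 3′ on the plus strand of hg19. They stand at chr3:69811625-69811874, chr3:69812457-69812706, chr3:69915125-69915374 and chr3:69985488-69985737. Capitals mark motif matches, either AGATAA, bound by factors of the GATA family, or its complement TTATCT, or the cyclic AMP response element (CRE) TGACGTCA.
MITF promoter 3: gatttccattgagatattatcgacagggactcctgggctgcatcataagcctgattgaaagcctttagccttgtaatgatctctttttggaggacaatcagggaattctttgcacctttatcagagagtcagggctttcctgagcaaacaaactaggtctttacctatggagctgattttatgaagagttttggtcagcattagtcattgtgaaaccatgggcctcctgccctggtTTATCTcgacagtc
MITF promoter 4: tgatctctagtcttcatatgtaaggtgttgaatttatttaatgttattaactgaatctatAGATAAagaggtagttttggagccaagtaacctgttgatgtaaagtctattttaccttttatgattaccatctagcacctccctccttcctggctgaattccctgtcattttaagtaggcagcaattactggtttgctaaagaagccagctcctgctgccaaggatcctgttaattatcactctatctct
MITF promoter 6: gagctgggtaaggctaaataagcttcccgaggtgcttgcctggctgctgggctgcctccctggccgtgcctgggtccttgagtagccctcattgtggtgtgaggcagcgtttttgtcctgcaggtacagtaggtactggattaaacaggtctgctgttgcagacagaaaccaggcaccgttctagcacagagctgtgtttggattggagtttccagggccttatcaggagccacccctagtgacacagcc
MITF promoter 7 (M): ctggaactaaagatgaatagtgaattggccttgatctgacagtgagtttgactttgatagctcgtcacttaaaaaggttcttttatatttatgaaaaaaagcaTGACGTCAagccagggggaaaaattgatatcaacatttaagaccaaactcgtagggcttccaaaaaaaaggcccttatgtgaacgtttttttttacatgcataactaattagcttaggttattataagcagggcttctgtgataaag

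Motifs were searched as exact letters on both strands, with overlaps between motifs allowed: the E-box CACGTG, the E-box variant CATGTG, the AP-1 motif TGANTCA, the forkhead motif TGTTTAC, the motif AGATAA for the family of GATA factors, the response element TGACGTCA, the box GGGCGG known as the GC box and the SOX motif AACAAT. Promoters 3 and 4 each held 1 GATA match, which 11.7% of all promoters of the same length held. Promoter 6 held none of the motifs. Promoter M held the CRE, found in 0.776% of promoters, and this element is a known part of the melanocyte promoter. A match is a description of the letters and not evidence of binding.

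Outside the promoters, both marks were called in HCT15-FR alone at an intronic MITF region. A further sequence is the centre of that region, chr3:69834269-69834468 on the plus strand. Its capitals mark TGAGTCA, an AP-1 match (TGANTCA), which 9.42% of H3K23su regions held in 200 bases at their centre.
MITF intronic region: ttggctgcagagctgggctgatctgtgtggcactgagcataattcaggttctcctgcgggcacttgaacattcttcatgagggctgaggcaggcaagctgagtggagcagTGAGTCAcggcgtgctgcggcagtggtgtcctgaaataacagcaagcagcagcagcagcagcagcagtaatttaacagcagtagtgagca

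The last sequence is the 250 bases upstream of TFEB promoter 5, chr6:41691465-41691714, printed on the minus strand, which TFEB is read from. It was chosen after its values were seen, because peaks of both marks lay over its TSS in HCT15-Pa and not in HCT15-FR. Capitals mark CACATG, the complement of the E-box CATGTG (11.6% of promoters), and 2 GC boxes, GGGCGG (24.5%).
TFEB promoter 5: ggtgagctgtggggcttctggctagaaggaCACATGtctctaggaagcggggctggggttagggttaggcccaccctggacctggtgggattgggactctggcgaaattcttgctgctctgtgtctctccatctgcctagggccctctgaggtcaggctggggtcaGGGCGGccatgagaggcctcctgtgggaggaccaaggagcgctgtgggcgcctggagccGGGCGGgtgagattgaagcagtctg

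The lists held 65364 to 68365 H3K23su peaks and 70600 to 76676 H3K27ac peaks per library. Each peak carries a score, the −log10 of its MACS2 P value, and the percentile given beside some scores is the peak's rank within its own list. The lists hold no read counts, so the depth behind a peak is unknown and a missing peak means only that none was detectable at the threshold used. Peaks covered 33.5 and 33.0 Mb of the genome in HCT15-Pa and 40.0 and 39.4 Mb in HCT15-FR for H3K23su, and 39.5 and 38.8 Mb against 46.3 and 46.6 Mb for H3K27ac. The covered length was thus 1.19-fold higher in HCT15-FR in both marks over the whole genome, which is the base against which the loci below are read. Of the 10 colon epithelium markers, all had an H3K27ac promoter peak in HCT15-FR and 9 in every library (KRT20 being called in HCT15-FR alone). Of the 7 melanocyte markers, PMEL alone had a peak in every library.

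For each mark, overlapping peaks (1 bp or more) of its 4 lists were joined into regions. FR-only stands for a peak in the 2 HCT15-FR lists with none in the 2 HCT15-Pa lists, Pa-only for the converse, shared for a peak in all 4 lists, and mixed for anything else. A promoter was scored within 1 kb of its TSS. Where the lines are said not to overlap, 2 values stand against 2. The share of all genes or promoters that separate likewise was not determined.

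At MITF, promoter A was marked in both lines, and promoters 3 and 4, within intron 1, were marked in HCT15-FR alone. For H3K23su, 3 of the 7 promoters were FR-only (3, 4 and 6), 1 was shared (1), none was Pa-only and 3 had no peak in any library. For H3K27ac, 2 were FR-only (3 and 4), 1 was shared (1), 1 was mixed (6) and 3 had no peak. Over the 69676 promoters of all protein-coding genes, 1.95% were FR-only, 1.27% Pa-only and 23.8% shared for H3K23su, and 1.87%, 1.40% and 26.4% for H3K27ac.

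**Figure D1:**
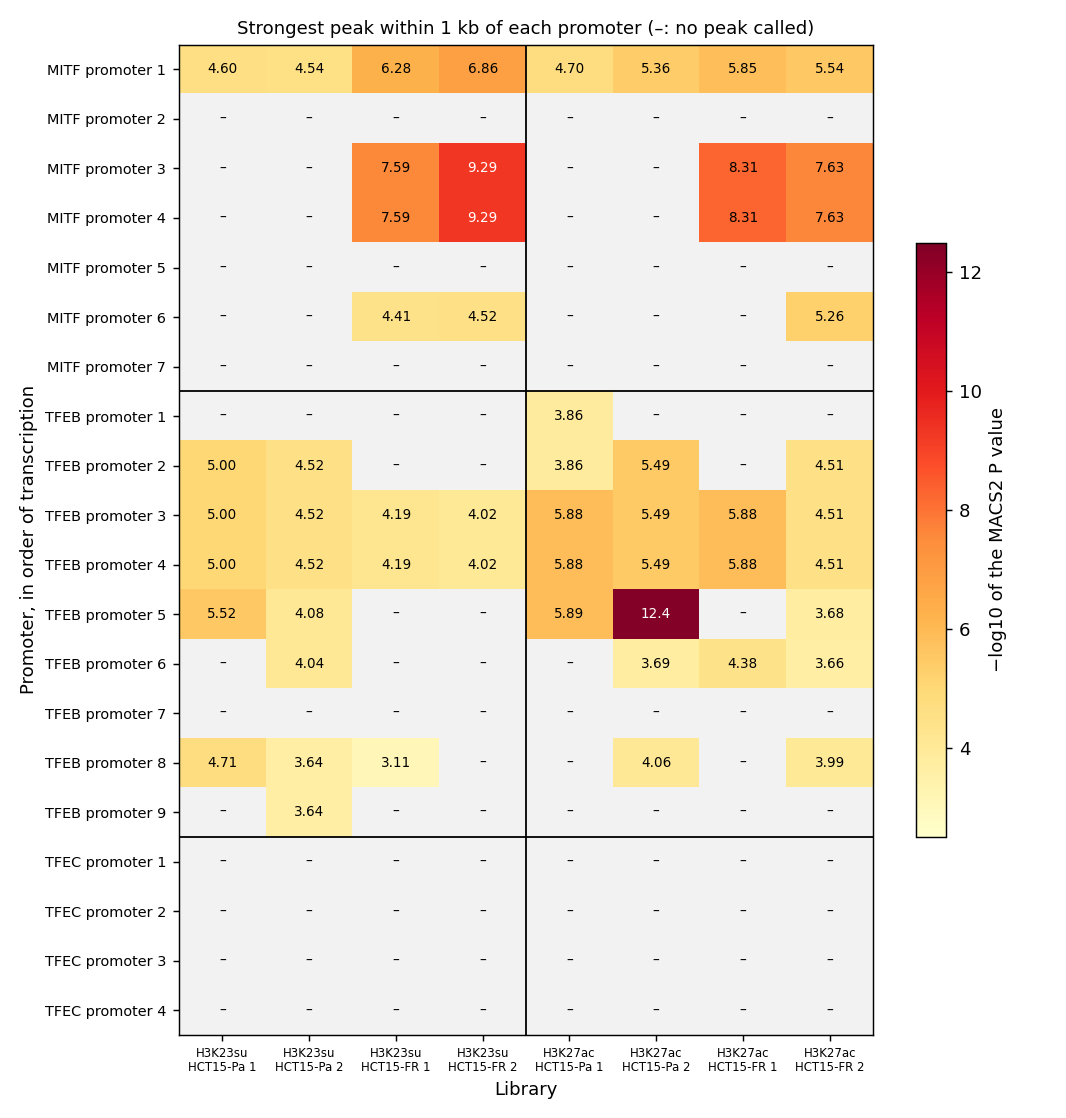
The strongest peak within 1 kb of each promoter (vertical, in order of transcription) in each of the 8 libraries (horizontal), coloured and printed as −log10 of the MACS2 P value, with a dash where no peak was called. MITF promoters 3 and 4 carry values of 7.59 to 9.29 in the 4 HCT15-FR libraries and none in HCT15-Pa, TFEB promoters 3 and 4 have a peak in every library, and TFEC has none.

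MITF promoter A was called in all 8 libraries. Its H3K23su scores were 4.60 and 4.54 in HCT15-Pa and 6.28 and 6.86 in HCT15-FR, at percentiles 58.5, 56.4, 80.5 and 85.4. The lines did not overlap, and peaks covered more of the promoter window in HCT15-FR, 1515 and 1133 bp against 746 and 541 bp. The 1515 bp joined a peak of 1267 bp and a separate one of 248 bp, called in HCT15-FR replicate 1 alone. The 541 bp of HCT15-Pa replicate 2 also joined 2 peaks. Over the whole lists, the median H3K23su peak was 451 and 447 bp wide in HCT15-FR and 387 and 386 bp in HCT15-Pa. The merged region, chr3:69788289-69789568, reached from 318 bp upstream to 961 bp downstream of the TSS. H3K27ac scores at promoter A were 4.70 and 5.36 in HCT15-Pa and 5.85 and 5.54 in HCT15-FR. By rank the H3K27ac values overlapped, at percentiles 58.7 and 67.9 against 65.2 and 61.7, while the covered length did not, at 357 and 576 bp against 1344 and 1099 bp.

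MITF promoter 3 carried the highest scores of the locus. Its H3K23su scores in HCT15-FR were 7.59 and 9.29, at percentiles 89.9 and 95.7, and its H3K27ac scores were 8.31 and 7.63, at percentiles 81.2 and 78.2. No peak of either mark was called there in the 4 HCT15-Pa libraries. The H3K23su region (chr3:69811570-69812124, 555 bp) ran from 305 bp upstream to 249 bp downstream of the TSS, so it held the sequence printed for promoter 3, and the H3K27ac region (chr3:69811593-69812228, 636 bp) nearly coincided with it. Promoter 4, whose transcripts include one coding for 468 residues, was called through these same peaks, which ended 583 bp (H3K23su) and 479 bp (H3K27ac) upstream of its TSS. With a window of 500 bp, the FR-only promoters fell from 3 to 2 for H3K23su and from 2 to 1 for H3K27ac. The peaks over promoters 3 and 4 are therefore 1 observation for each mark and not a pair.

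MITF promoter 6, the start of transcripts coding for up to 504 residues, had weaker peaks. H3K23su scored 4.41 and 4.52 in HCT15-FR, at percentiles 45.2 and 48.1, and was not called in HCT15-Pa. The HCT15-FR replicate 1 peak was 146 bp long and the replicate 2 peak 605 bp, and together they spanned chr3:69914991-69915595. H3K27ac was called there in HCT15-FR replicate 2 alone, with a score of 5.26, so only H3K23su met the FR-only rule.

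Promoters 2, 5 and M of MITF had no peak of either mark in any library. No region of either mark was found from chr3:69915595 to the end of the window at chr3:70117487. This stretch holds promoter M, the exons common to all isoforms and the start of SAMMSON, a long noncoding RNA gene of the melanocyte lineage.

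The window of MITF and 100 kb on either side held 12 H3K23su regions, of which 4 were FR-only, 0 Pa-only, 1 shared and 7 mixed. FR-only regions made up 33.3% of the window's regions, against 7.95% of all 122500 H3K23su regions, 5.01% of which were Pa-only and 23.9% shared. For H3K27ac, 16 regions divided into 5 FR-only, 0 Pa-only, 1 shared and 10 mixed, or 31.2% FR-only against 9.08% of all 133786 regions, 4.53% of which were Pa-only and 25.2% shared. Single libraries bore on these counts: 6 of the 12 H3K23su regions had a peak in 1 library, 5 of them in HCT15-FR. When a library was left out, a region needed a peak in the remaining library of its line alone, and the FR-only count then rose to 8 for H3K23su without HCT15-FR replicate 2, and to 9 and 8 for H3K27ac without HCT15-FR replicates 1 and 2. Pa-only counts rose from 0 to 1 for H3K23su without HCT15-Pa replicate 2 and for H3K27ac without either HCT15-Pa replicate.

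Outside the promoters, 2 places had FR-only regions of both marks. The first lay 73.69 kb upstream of promoter A, with H3K23su at chr3:69714155-69714913 scoring 6.30 and 4.34 and H3K27ac at chr3:69713980-69715047 scoring 7.55 and 7.36. The second lay in intron 1 of the longest transcript, 9.0 kb upstream of promoter 5, at chr3:69834180-69834557 for H3K23su (4.50 and 3.88) and chr3:69834106-69834440 for H3K27ac (3.59 and 4.16), around the sequence with the AP-1 match. These intronic scores were low in their lists, with the weaker H3K23su peak at percentile 25.5. With promoter 3 included, 3 of the 4 FR-only H3K23su regions at MITF met an FR-only H3K27ac region, against 35.8% of the FR-only H3K23su regions of the genome.

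The most distal upstream peaks differed between the marks. H3K27ac was FR-only at chr3:69695496-69696108 (5.57 and 4.54), 92.5 kb upstream of promoter A, and at chr3:69698372-69698642 (3.30 and 4.02). At the former H3K23su was mixed, with peaks of 3.55 and 4.24 in HCT15-Pa and of 4.34 in HCT15-FR replicate 2. In the gene body HCT15-Pa had, apart from promoter A, a single peak, an H3K23su peak in replicate 1 (chr3:69879343-69879528, score 3.76).

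**Figure D2:**
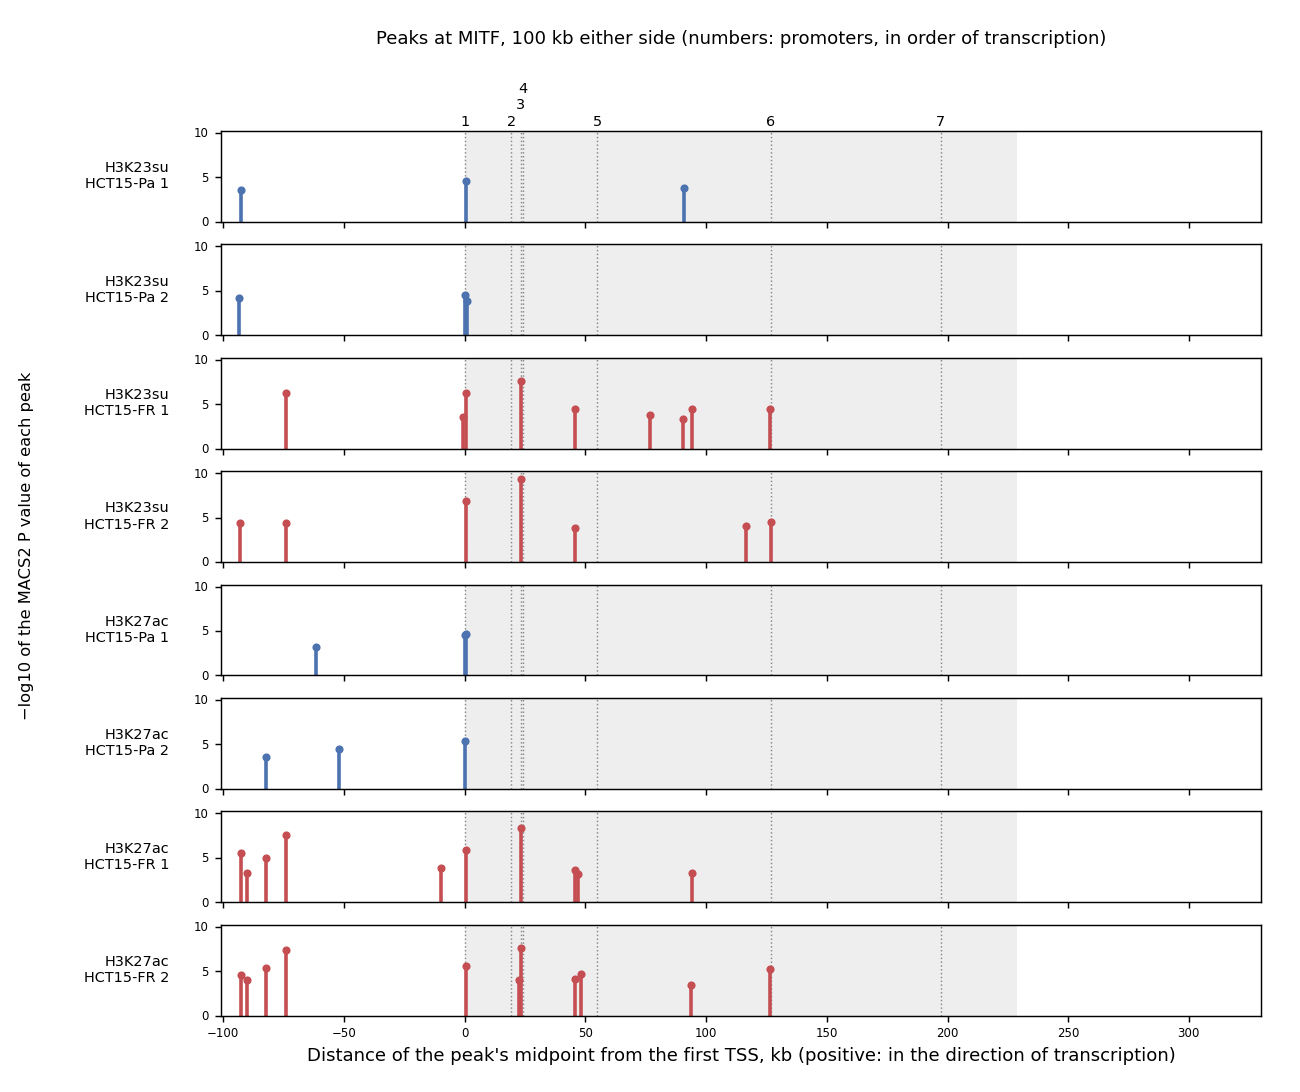
Peaks at MITF and 100 kb on either side in the 8 libraries, 1 panel each, at the distance of the peak's midpoint from the first TSS in kb (horizontal) and with the −log10 of the MACS2 P value as height (vertical); grey marks the gene, dotted lines its 7 promoters, blue HCT15-Pa and red HCT15-FR. HCT15-Pa libraries hold 3 peaks each, HCT15-FR libraries 7 to 11, and no panel has a peak beyond promoter 6.

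In length, peaks in the MITF window covered 1.20 and 0.759 kb in HCT15-Pa and 4.34 and 4.70 kb in HCT15-FR for H3K23su. The means were 0.980 ± 0.313 and 4.52 ± 0.257 kb (SD, n = 2), a 4.61-fold difference against 1.19-fold over the genome. For H3K27ac the values were 0.798 and 0.960 kb against 5.55 and 5.40 kb, 6.23-fold. The lines did not overlap in either mark, as they also did not over the whole genome. Within the gene body alone the ratios were 3.95 for H3K23su and 6.76 for H3K27ac.

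**Figure D3:**
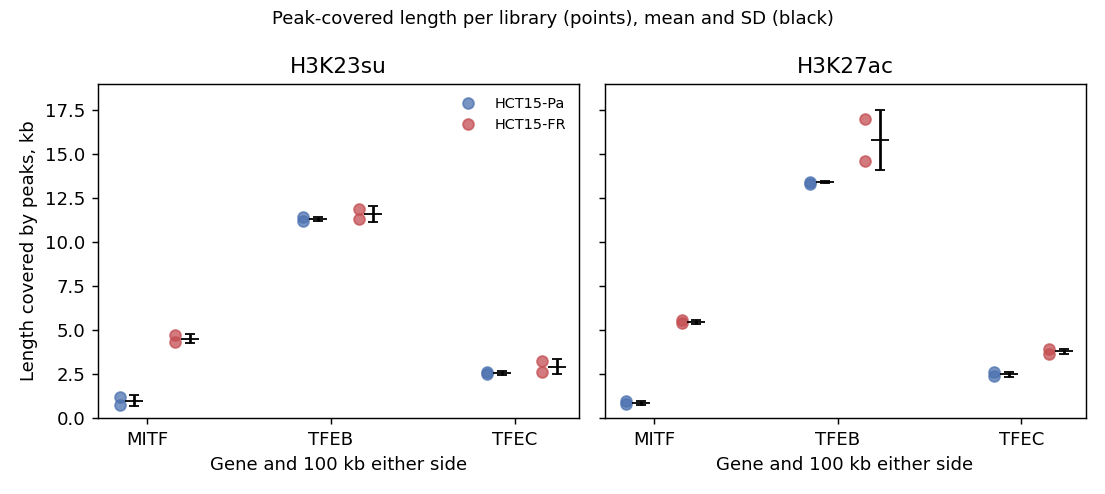
Length covered by peaks in kb (vertical) in each gene with 100 kb on either side (horizontal), for H3K23su (left) and H3K27ac (right); points are libraries, HCT15-Pa in blue and HCT15-FR in red, and black bars are the mean and SD of 2 libraries. MITF is at 0.759 to 1.20 kb in HCT15-Pa and at 4.34 to 5.55 kb in HCT15-FR, while the H3K23su points of TFEB and TFEC overlap between the lines.

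The chromosome around MITF also held more FR-only than Pa-only regions. In the 1 Mb beyond the window on each side, FR-only regions made up 6 of 52 for H3K23su (11.5%), with 0 Pa-only, and 12 of 62 for H3K27ac (19.4%), with 3 Pa-only (4.84%). The FR-only shares lay between those of the window and of the genome.

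TFEB (ENSG00000112561, chr6:41651716-41703997, minus strand) had peaks of both marks in both lines at its main promoters. It had 9 promoters for 19 transcripts, the densest group of which, promoters 1 to 4, lay within 1.858 kb. Promoter 4, the start of 8 transcripts, had H3K23su scores of 5.00 and 4.52 in HCT15-Pa and 4.19 and 4.02 in HCT15-FR. Its H3K27ac scores were 5.88 and 5.49 in HCT15-Pa and 5.88 and 4.51 in HCT15-FR. The H3K27ac scores thus overlapped between the lines. By rank both marks were lower in HCT15-FR without overlap. The percentiles were 69.2 and 55.6 against 38.1 and 31.0 for H3K23su and 74.3 and 69.5 against 65.5 and 45.6 for H3K27ac. A lower rank here need not be a lower score. The same H3K27ac score of 5.88 stood at percentile 74.3 in HCT15-Pa replicate 1 and at 65.5 in HCT15-FR replicate 1.

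Of the 9 TFEB promoters, 2 were Pa-only for H3K23su (2 and 5), 2 shared (3 and 4), 3 mixed and 2 without a peak, and none was FR-only in either mark. For H3K27ac 2 were shared (3 and 4), 5 mixed and 2 without a peak. Promoter 2 was Pa-only because the peaks over promoter 4 reached farther upstream in HCT15-Pa, covering 69 and 298 bp of its window. Promoters 3 and 4 were likewise called through the same peaks.

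TFEB promoter 5, within intron 1, had peaks over its TSS in HCT15-Pa alone. H3K23su scored 5.52 and 4.08 in HCT15-Pa (chr6:41691232-41691754, 523 bp), from 290 bp upstream to 232 bp downstream of the TSS, so it included the sequence printed for this promoter. H3K27ac scored 5.89 and 12.4 in HCT15-Pa at chr6:41691301-41691604 (304 bp), at percentiles 74.4 and 95.0. Neither mark had a peak at those positions in HCT15-FR. A separate H3K27ac peak in HCT15-FR replicate 2, 741 bp downstream of the TSS and scoring 3.68, made the promoter mixed for H3K27ac when scored within 1 kb.

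Among all TFEB regions, 2 of 23 for H3K23su were FR-only (8.70%), 1 Pa-only (4.35%), 7 shared (30.4%) and 13 mixed. For H3K27ac, 5 of 38 were FR-only (13.2%), 1 Pa-only (2.63%), 8 shared (21.1%) and 24 mixed. Among these FR-only regions, chr6:41552793-41553413 and chr6:41672537-41672954 had weak peaks in HCT15-FR replicate 2. They scored 2.96 and 3.15, at percentiles 0.337 and 2.64. With a common minimum score of 2.97 for the H3K27ac lists, 4 regions were FR-only. The H3K23su shares were near those of the genome. The counts depended on single libraries: without HCT15-FR replicate 1 the FR-only count rose to 5 for H3K23su and 9 for H3K27ac, and without replicate 2 it was 8 for H3K27ac. The Pa-only count rose to between 2 and 6 for H3K23su without HCT15-Pa replicate 1, HCT15-Pa replicate 2 or HCT15-FR replicate 1, and to between 3 and 6 for H3K27ac without the same libraries.

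An intronic region of TFEB was called in every library, at chr6:41680445-41681925 for H3K23su (5.22, 6.38, 7.25 and 5.75 in HCT15-Pa 1 and 2 and HCT15-FR 1 and 2) and chr6:41680399-41681873 for H3K27ac (4.67, 5.26, 5.72 and 7.00). Another intronic region, chr6:41695649-41696992, was shared for H3K27ac (3.61 and 3.46 in HCT15-Pa, 3.95 and 4.73 in HCT15-FR) and lacked an H3K23su peak in HCT15-FR replicate 2. The FR-only regions lay in the flanks, apart from 1 H3K27ac region near promoter 6 (chr6:41672537-41672954, 4.38 and 3.15). Both marks were FR-only 88.41 kb upstream of the first TSS, at chr6:41792402-41793267 for H3K23su (5.58 and 4.84) and chr6:41792608-41793253 for H3K27ac (3.66 and 4.47). H3K27ac was also FR-only just past the gene's end, at chr6:41649886-41650361 (5.31 and 6.88). Farther downstream it was FR-only at chr6:41611734-41612830 (4.27 and 5.33), where H3K23su was shared, and at chr6:41552793-41553413 (4.81 and 2.96). H3K23su was FR-only at chr6:41736113-41736987 (3.69 and 3.78), upstream of the gene, where H3K27ac was mixed. Shared regions of both marks also lay 4.09 kb upstream of promoter 1 and at the promoters of the neighbours MDFI, FRS3, PRICKLE4 and TOMM6, and H3K27ac was shared at chr6:41725240-41726025.

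**Figure D4:**
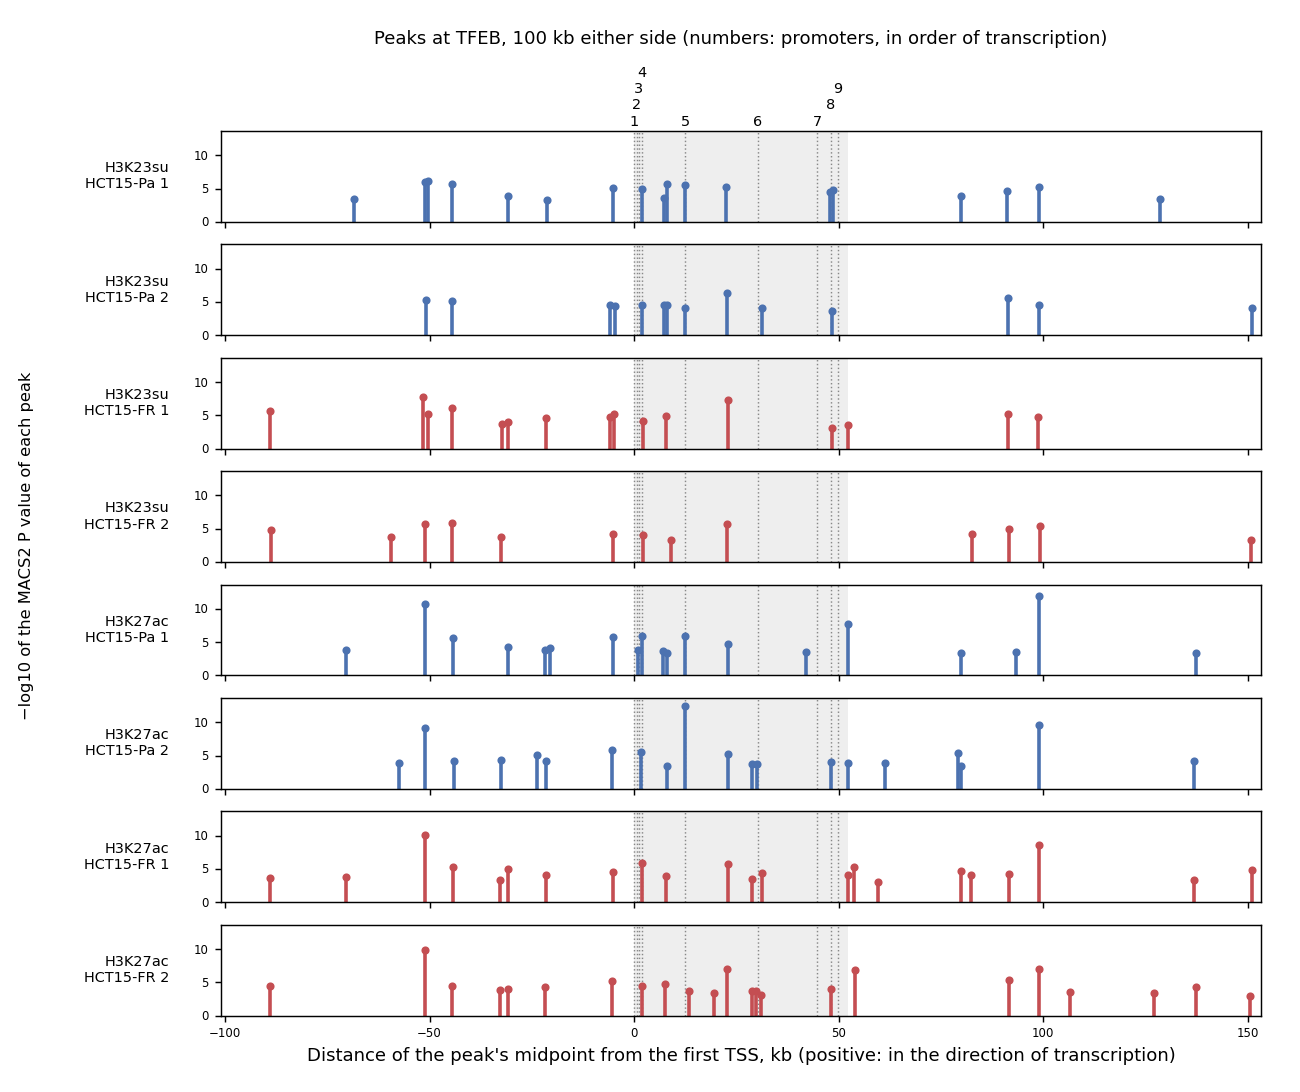
Peaks at TFEB and 100 kb on either side in the 8 libraries, 1 panel each, at the distance of the peak's midpoint from the first TSS in kb (horizontal) and with the −log10 of the MACS2 P value as height (vertical); grey marks the gene, dotted lines its 9 promoters, blue HCT15-Pa and red HCT15-FR. Peaks near promoter 4 stand in every panel, and those over promoter 5 in the 4 HCT15-Pa panels; the H3K27ac panel of HCT15-FR 2 has a lower peak (3.68) just past it.

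Peaks in the TFEB window covered 11.4 and 11.2 kb in HCT15-Pa and 11.3 and 11.9 kb in HCT15-FR for H3K23su, a ratio of 1.03 with overlapping lines. For H3K27ac they covered 13.3 and 13.4 kb against 17.0 and 14.6 kb without overlap, a ratio of 1.18 against 1.19 over the genome. In the gene body alone H3K23su covered less in HCT15-FR, 2.83 and 2.19 kb against 3.38 and 4.15 kb, a ratio of 0.667. The lines did not overlap there, while the H3K27ac body lengths did (3.72 and 4.61 kb against 4.08 and 4.97 kb). No test of the difference between TFEB and MITF was made.

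TFEC (ENSG00000105967, chr7:115575202-115799950, minus strand) had no peak at any of its 4 promoters in any library. In its body of 224.749 kb, H3K23su was called once, in HCT15-Pa replicate 1 (chr7:115636130-115636275, 4.54). H3K27ac was called in 1 region, chr7:115737533-115737822, with scores of 3.60 and 4.61 in HCT15-Pa and 3.48 in HCT15-FR replicate 1. The gene was thus close to unmarked in both lines, and no peak in its body was called in both HCT15-FR libraries.

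The marked part of the TFEC window lay upstream. The nearest region, 9.12 kb upstream of promoter 1 at chr7:115809067-115809440, was shared for H3K23su (4.89 and 3.94 in HCT15-Pa, 5.91 and 4.48 in HCT15-FR) and mixed for H3K27ac. The strongest belonged to the promoter of TES, a neighbouring gene for a focal adhesion protein, where H3K27ac scored 18.8 and 17.6 in HCT15-Pa and 22.9 and 20.7 in HCT15-FR. Of 10 H3K23su regions in the window, 1 was FR-only (10.0%, against 7.95% over the genome) and 4 shared (40.0%, against 23.9%). Of 7 H3K27ac regions, 1 was FR-only (14.3%, against 9.08%) and 3 shared (42.9%, against 25.2%). Both FR-only regions lay farther upstream of TFEC than the TES promoter, at chr7:115859372-115859683 for H3K23su (5.16 and 3.96) and chr7:115857171-115857438 for H3K27ac (5.86 and 4.89). Without 1 library the FR-only count rose to 2 (H3K23su, either HCT15-FR replicate; H3K27ac, either HCT15-Pa replicate or HCT15-FR replicate 2), and the Pa-only count rose to 2 for H3K23su without HCT15-Pa replicate 2 and to 1 for H3K27ac without HCT15-FR replicate 1. The covered length was 2.49 and 2.64 kb against 3.25 and 2.62 kb for H3K23su (ratio 1.14, overlapping) and 2.60 and 2.38 kb against 3.67 and 3.91 kb for H3K27ac (1.52, not overlapping).

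**Figure D5:**
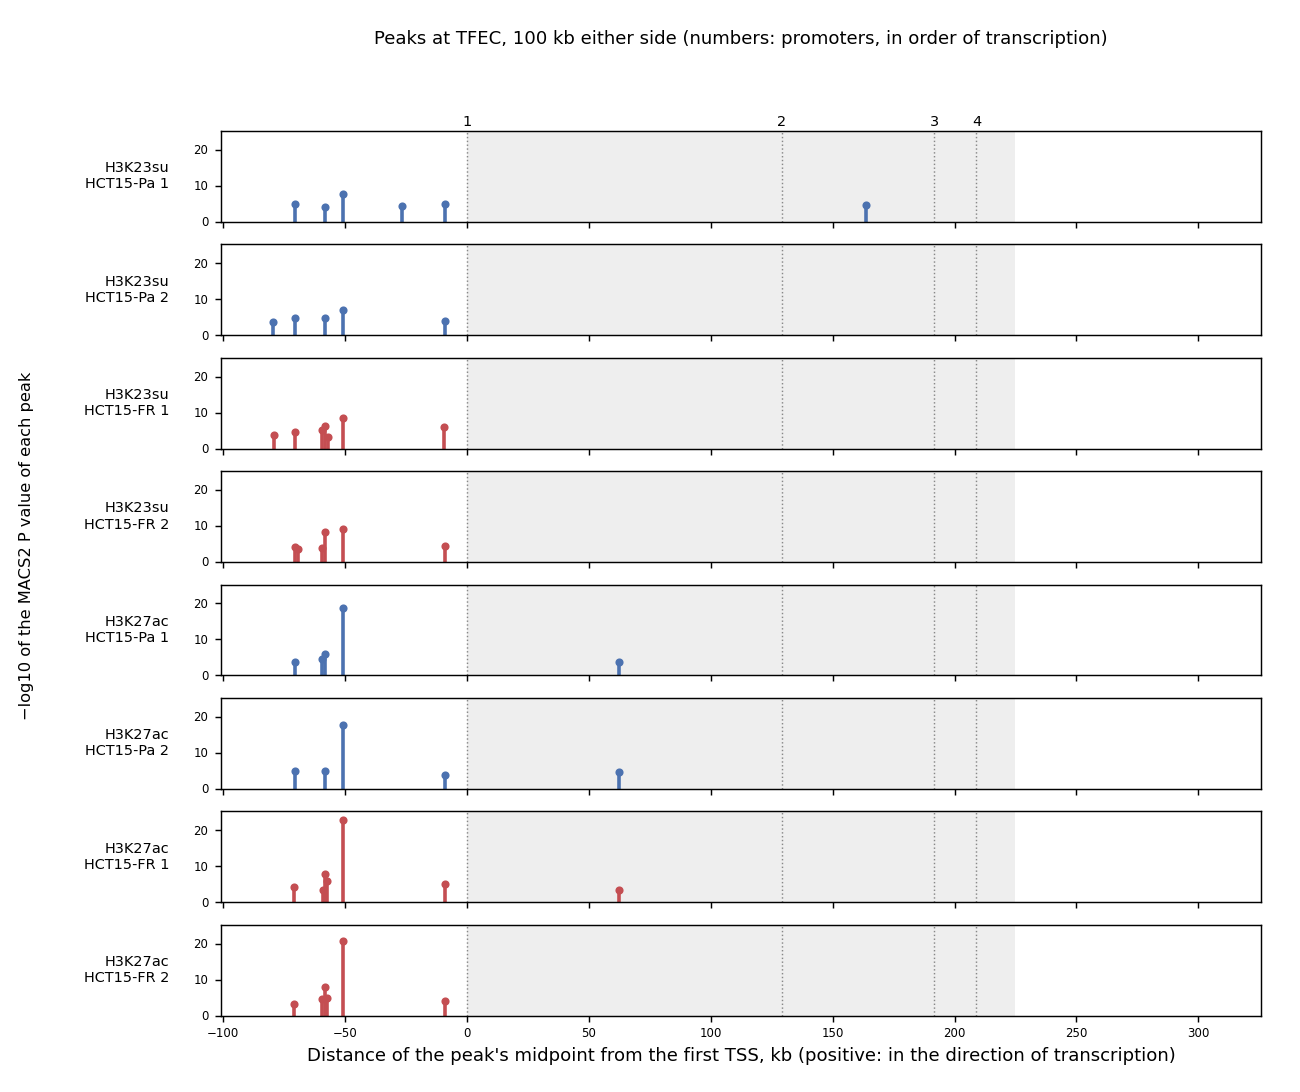
Peaks at TFEC and 100 kb on either side in the 8 libraries, 1 panel each, at the distance of the peak's midpoint from the first TSS in kb (horizontal) and with the −log10 of the MACS2 P value as height (vertical); grey marks the gene, dotted lines its 4 promoters, blue HCT15-Pa and red HCT15-FR. The tallest peaks, 17.6 to 22.9 for H3K27ac, stand upstream of the gene at the promoter of TES, and the grey body is almost empty.

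Genes that act on the MiT/TFE factors, or are their known targets, were examined by whether any of their promoters carried a peak. Over all 20163 protein-coding genes, 57.6% were shared, 1.66% FR-only and 1.59% Pa-only for H3K23su, and 62.1%, 1.41% and 2.07% for H3K27ac. Of 22 genes of nutrient control, among them mTOR, the Rag GTPases and folliculin, 21 were shared in both marks. The exception was RRAGD, a Rag GTPase that brings mTORC1 to the lysosome, which was Pa-only in both, with H3K23su scores of 6.18 and 5.67 and H3K27ac scores of 7.26 and 5.16.

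Of 33 lysosome and autophagy targets, 28 were shared for H3K23su and 29 for H3K27ac, with 0 FR-only for H3K23su, 2 FR-only for H3K27ac and 0 Pa-only in either. The FR-only promoters were those of CTSF, for the protease cathepsin F (5.94 and 5.33), and NEU1, for the lysosomal sialidase (6.30 and 3.62). CTSF had H3K23su peaks in both lines (4.39 in HCT15-Pa replicate 1, 4.97 and 3.76 in HCT15-FR), and NEU1 had none.

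Of 8 regulators of promoter M, 3 were shared in both marks, and for H3K23su 1 was FR-only and 4 had no peak. The FR-only gene was KIT, the receptor tyrosine kinase of melanoblasts (3.81 and 5.25), whose H3K27ac was mixed. PAX3 had no peak of either mark in any library, and SOX10 had none of H3K23su. Of 11 pigment cell targets, 3 were shared for H3K23su and 4 for H3K27ac, and 1 was FR-only, MC1R, the melanocortin receptor, for H3K23su (4.07 and 3.51). H3K27ac at MC1R was shared. TYR, TYRP1, DCT, MLANA and OCA2 had no peak in any library.

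Among markers of other cell types, 1 of 8 myeloid and osteoclast markers was shared in each mark, and SPI1 was Pa-only for H3K23su (4.53 and 4.09). H3K27ac at SPI1 was mixed, with a peak of 4.20 in HCT15-FR replicate 2. Of 4 fibroblast markers, 0 were shared for H3K23su and 2 for H3K27ac. VIM, for the intermediate filament vimentin, was FR-only for H3K23su (5.62 and 5.75). Its H3K27ac was shared (9.63 and 6.63 in HCT15-Pa, 10.2 and 10.3 in HCT15-FR). Of the colon epithelium markers 7 were shared for H3K23su. CDH17, an intestinal cadherin, was FR-only for H3K23su (4.42 and 5.05) and shared for H3K27ac. KRT20 and CDX2 had H3K23su called in 1 HCT15-FR library each.

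The genes most like MITF in covered length were sought among 16344 protein-coding genes, each mark scaled to its mean over its 4 libraries, by Euclidean distance over the 8 libraries. The 5 nearest were BMPR1B (distance 0.195), ZNF571 (0.245), ZNF793 (0.257), ZNF569 (0.290) and HOPX (0.333). The 3 zinc finger genes lie together on chromosome 19, where ZNF571 and ZNF793 have nearly the same values, so they are not separate cases. Scaled values for BMPR1B were 0.410, 0.401, 1.57 and 1.62 for H3K23su in HCT15-Pa 1 and 2 and HCT15-FR 1 and 2, where MITF had 0.437, 0.276, 1.58 and 1.71. Likeness here describes 8 points of 2 lines and was given no test.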

How the data were processed

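CUT&Tag libraries of H3K23su and H3K27ac from HCT15-Pa and HCT15-FR cells were analysed from the peak lists. Per the study's methods, the authors aligned reads to hg19 with Bowtie2, filtered them with SAMtools and called peaks in each library separately with MACS2, in broad mode for H3K27ac. Each deposited peak has a position and the −log10 of its MACS2 P value. Spike-in DNA was added to the libraries but does not enter the lists. Because the score depends on depth, percentiles were taken within each list. Scores of different libraries set side by side, and the common minimum score, were not adjusted for depth.

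Genes and TSSs came from GENCODE 44 lifted to GRCh37, and sequences from the GRCh37 genome. Scripts used Python 3.11.15, numpy 2.4.6 and scipy 1.17.1, and were tested on simulated data. Scores and regions were named where a region was FR-only, Pa-only or shared at a promoter of a member, with up to 5 further FR-only or Pa-only regions per member and mark by the rank of the weaker peak, and list genes where FR-only or Pa-only. Other regions and genes named were chosen after their values were seen. The members, lists and rules were chosen with earlier results of these data known. Alternatives were the stronger 50% of each list, a common minimum score, 50% coverage for presence, merging within 500 bp, 50 kb flanks, the gene body alone, promoter windows of 500 bp, 2 kb and 1 kb upstream to 100 bp downstream, and leaving out each library.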

Additional observations from a re-analysis of the deposited data

How the results depend on the processing

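No paired analysis was possible because no result came from a test, and the labels number replicates 1 and 2 in each line without tying a number to a shared culture or batch. Counts of 2 libraries a line are small, and depth, which is not in the lists, limits what could be called. Of 156 counts under alternatives, 113 stayed within 1.5 times the reported one. The MITF covered-length difference stayed positive in 16 of 16 alternatives, from 1.57 to 4.68 kb. Leaving out a library could not change its sign, because the lines did not overlap. The common minimum score left the difference as reported in both marks. For TFEB and TFEC, 8 values changed sign, down to -1.25 kb for TFEB H3K23su in the gene body. The cause of the changes below was not tested, apart from the smaller windows, which hold fewer regions.

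With the stronger 50% of each list, FR-only regions numbered 1 (H3K23su) and 3 (H3K27ac) at MITF, 1 and 1 at TFEB and 0 (H3K23su) at TFEC, where 1 H3K23su region was Pa-only. With 50% coverage for presence, TFEB had 2 Pa-only H3K23su regions and, for H3K27ac, 3 FR-only and 3 Pa-only. Merging within 500 bp left TFEC with 0 FR-only H3K27ac regions. With 50 kb flanks, FR-only regions numbered 2 at MITF (H3K27ac), 1 (H3K23su) and 3 (H3K27ac) at TFEB and 0 in both marks at TFEC. In gene bodies alone they numbered 2 at MITF (H3K27ac), 0 (H3K23su) and 1 (H3K27ac) at TFEB and 0 at TFEC. With 500 bp promoter windows, 2 MITF promoters were FR-only for H3K23su and 1 for H3K27ac. With the stronger 50% of each list, 2 MITF promoters were FR-only in each mark.

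Leaving out each library in turn, FR-only regions ranged at MITF from 4 to 8 (H3K23su) and 5 to 9 (H3K27ac), at TFEB from 2 to 5 and 6 to 9, and at TFEC from 1 to 2 in both marks. Pa-only regions ranged from 0 to 1 in both marks at MITF, from 1 to 6 in both at TFEB, and from 0 to 2 (H3K23su) and 0 to 1 (H3K27ac) at TFEC. FR-only MITF promoters stayed at 3 for H3K23su and ranged from 2 to 3 for H3K27ac, and Pa-only MITF promoters stayed at 0.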

Other observations

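TFE3, the remaining gene of the family, had 4 annotated promoters, of which 2 were shared and 2 had no peak in either mark. Its most upstream promoter scored 4.83 and 4.57 in HCT15-Pa and 4.44 and 5.28 in HCT15-FR for H3K23su, and 8.65, 7.76, 8.10 and 8.13 for H3K27ac in the same order. By rank within each list the lines overlapped for H3K23su, at percentiles 64.9 and 57.3 against 46.3 and 66.3. They did not for H3K27ac, at 88.2 and 84.6 in HCT15-Pa against 80.2 and 80.6 in HCT15-FR. The H3K27ac scores themselves did overlap. Both HCT15-FR scores were above the 7.76 of HCT15-Pa replicate 2 but ranked below it, so the ranks do not show lower scores at TFE3 in HCT15-FR.

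In the 1 Mb beyond the TFEB window on each side, 11 of 166 H3K23su regions were FR-only (6.63%) and 10 Pa-only (6.02%). Of 194 H3K27ac regions there, 19 were FR-only (9.79%) and 8 Pa-only (4.12%). Beyond the TFEC window, 8 of 95 H3K23su regions were FR-only (8.42%) and 3 Pa-only (3.16%). Of 74 H3K27ac regions there, 13 were FR-only (17.6%) and 4 Pa-only (5.41%). Over the genome, FR-only and Pa-only shares were 7.95% and 5.01% for H3K23su and 9.08% and 4.53% for H3K27ac.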
